A study of Mus musculus with 20 samples.

Results

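The receptor genes for interleukin-7 (IL-7), IL-2, IL-15, IL-4, IL-12 and IL-18 were followed in CD4+ iNKT1 cells, the invariant natural killer T cells that are committed to interferon-γ production. The members were chosen by gene name, with earlier results of these data known. All 10 were present among the 53714 genes of the deposited table, namely Il7r, Il2rg, Il2rb, Il2ra, Il15ra, Il4ra, Il12rb1, Il12rb2, Il18r1 and Il18rap. Their RNA was measured in 20 libraries of 7 groups. Cells of BL6 mice (C57/BL6N in the labels, wild type) came from thymus, spleen, blood, liver kept on ice (liver_C) and digested liver (liver_H), with 3 libraries per group. Cells of BALB/c mice came from liver_C with 2 libraries and from liver_H with 3. All mice were females of 8 to 12 weeks, no transgene, knockout or drug is given for any group, and each spleen and liver library was a pool of 4 to 6 mice. No pool size is given for blood and thymus, and the p-values below measure the spread between libraries. Thymus and spleen were meshed in the cold. Livers were perfused, liver_H tissue was treated with collagenase D and DNase I for 30 min at 37 °C, and both liver preparations were enriched on Percoll at 20 °C. Livers were split for the 2 preparations, but the labels do not say which liver_H and liver_C libraries share mice, and all libraries were treated as independent.

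The gate touches 1 of the genes. Cells of spleen, liver and blood were sorted as CD1d tetramer-binding CD4+ cells with surface CXCR3, whereas thymus cells were sorted by CD122, the protein of Il2rb. Il2rb in thymus is therefore given as a description only, and for every other gene the organ and the gate cannot be told apart in comparisons with thymus.

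These receptors work in shared modules. The common gamma chain encoded by Il2rg pairs with the IL-7 receptor alpha chain (Il7r) for IL-7, with the beta chain CD122 (Il2rb) for IL-2 and IL-15, and with the IL-4 receptor alpha chain (Il4ra) for IL-4. Il2ra encodes CD25, which raises the affinity for IL-2, and Il15ra encodes the chain that presents IL-15. They signal through JAK kinases and STAT factors. The IL-12 receptor is made of the chains of Il12rb1 and Il12rb2 and activates STAT4, and the IL-18 receptor is made of a ligand-binding chain (Il18r1) and an accessory chain (Il18rap) and signals through MyD88 and IRAK kinases. In iNKT1 cells IL-15 is known as a survival factor, and IL-12 and IL-18 together induce interferon-γ without a T cell receptor signal.

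Values are normalized reads as deposited by the authors, which are read counts corrected for library size. Differences are log2 fold changes of normalized reads + 1 from limma, with p adjusted over all genes tested by the method of Benjamini and Hochberg and called at an adjusted p under 0.05. Depth ranged from 9336861 to 22879834 reads per library (median 12457757). The median correlation of a library with the others of its group was between r = 0.905 and 0.973. The 8 iNKT1 markers, among them Cd3e, Cd4, Tbx21 and Cxcr3, were present in every group, with sums of 15981 to 24218, and 4 of the 8 were called lower in thymus than in spleen, liver_C and blood each. Markers of other cells differed between groups. The summed level of 6 double-positive thymocyte markers was 10367 to 23280 in thymus and reached at most 2548 elsewhere. One of them, the recombinase gene Rag1, had 22.1 to 1540 normalized reads (median 345) in the 6 non-thymic libraries numbered N0962 to N0972 and 0 to 487 (median 1.70) in the 11 others, and results were also computed without that number range. Summed B and plasma cell markers were 467 to 938 in spleen and 5.11 to 18.7 in liver_C. In bulk libraries fewer cells with a transcript and less of it per cell cannot be told apart. Of the 10 genes, 4 overlap another annotated gene in GRCm38. Il2rg shares exon sequence with Gm20489 on the same strand, Il12rb2 with Serbp1 and Il4ra with Gm44876 on the opposite strand, and Gm37881 lies in Il2ra without touching an exon. The strand setting of the counting and its handling of shared bases are not stated, so reads of such partners could be mixed or left out.

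The start regions of 5 genes whose levels set groups apart are given because neighbouring or co-varying genes are described below. Of the 10 genes, 8 have an entry in the RefSeq promoter table for GRCm38.p6, and the 250 bases before the RefSeq transcription start are shown 5′ to 3′ on the strand of the gene. The RefSeq start of Il7r lies 300 bases inside the GENCODE gene span, so its window is within the annotated gene. Capitals mark matches, on either strand, to 1 of 6 short motifs. They are a STAT motif (TTCNNNGAA), an AP-1 motif (TGANTCA), an ETS motif (GGAAGT), a RUNX motif (TGTGGT), a T-box motif (GGTGTGA) and the NF-kB motif, none of which overlapped another in these windows. Il7r lies at chr15:9529877-9530126 (minus strand), Il2ra at chr2:11642542-11642791 (plus), Il12rb2 at chr6:67376189-67376438 (minus), Il18r1 at chr1:40465302-40465551 (plus, 1 of 3 windows of the gene) and Il18rap at chr1:40515112-40515361 (plus).
Il7r: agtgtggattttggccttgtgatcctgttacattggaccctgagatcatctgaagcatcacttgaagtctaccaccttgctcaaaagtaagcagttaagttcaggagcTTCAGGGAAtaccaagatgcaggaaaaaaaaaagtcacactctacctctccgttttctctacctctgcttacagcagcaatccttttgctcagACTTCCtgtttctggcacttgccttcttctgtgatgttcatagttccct
Il2ra: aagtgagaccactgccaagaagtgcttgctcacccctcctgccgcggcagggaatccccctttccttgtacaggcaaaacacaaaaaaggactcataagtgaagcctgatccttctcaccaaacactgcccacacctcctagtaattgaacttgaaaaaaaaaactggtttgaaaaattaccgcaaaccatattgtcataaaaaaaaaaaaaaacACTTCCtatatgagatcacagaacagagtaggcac
Il12rb2: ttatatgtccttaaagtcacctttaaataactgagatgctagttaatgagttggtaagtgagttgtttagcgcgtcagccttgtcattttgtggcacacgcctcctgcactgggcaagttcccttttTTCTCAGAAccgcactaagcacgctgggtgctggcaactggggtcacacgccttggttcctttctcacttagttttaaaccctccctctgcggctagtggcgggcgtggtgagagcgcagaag
Il18r1: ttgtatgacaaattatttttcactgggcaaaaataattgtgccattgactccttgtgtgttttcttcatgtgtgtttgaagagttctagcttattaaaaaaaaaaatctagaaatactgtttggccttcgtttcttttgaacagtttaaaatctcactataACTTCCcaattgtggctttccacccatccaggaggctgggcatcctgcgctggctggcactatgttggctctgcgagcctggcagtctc
Il18rap: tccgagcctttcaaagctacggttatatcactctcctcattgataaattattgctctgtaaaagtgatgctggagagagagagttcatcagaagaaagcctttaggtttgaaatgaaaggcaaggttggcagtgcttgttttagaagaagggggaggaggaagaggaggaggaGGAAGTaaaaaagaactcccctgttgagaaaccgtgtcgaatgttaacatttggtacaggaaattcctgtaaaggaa
The window of Il7r holds a STAT motif 142 bases and an ETS motif 49 bases before the RefSeq start, and that of Il12rb2 a STAT motif 123 bases before it. Il2ra, Il18r1 and Il18rap each hold an ETS motif, at 35, 89 and 77 bases. Of 32851 windows of this length over 27025 genes, 7.02% hold the STAT motif, 6.75% the AP-1 motif, 19.7% the ETS motif, 14% the RUNX motif, 3.33% the T-box motif and 1.41% the NF-kB motif. The matches are letters in a window and no measure of binding.

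**Figure D1:**
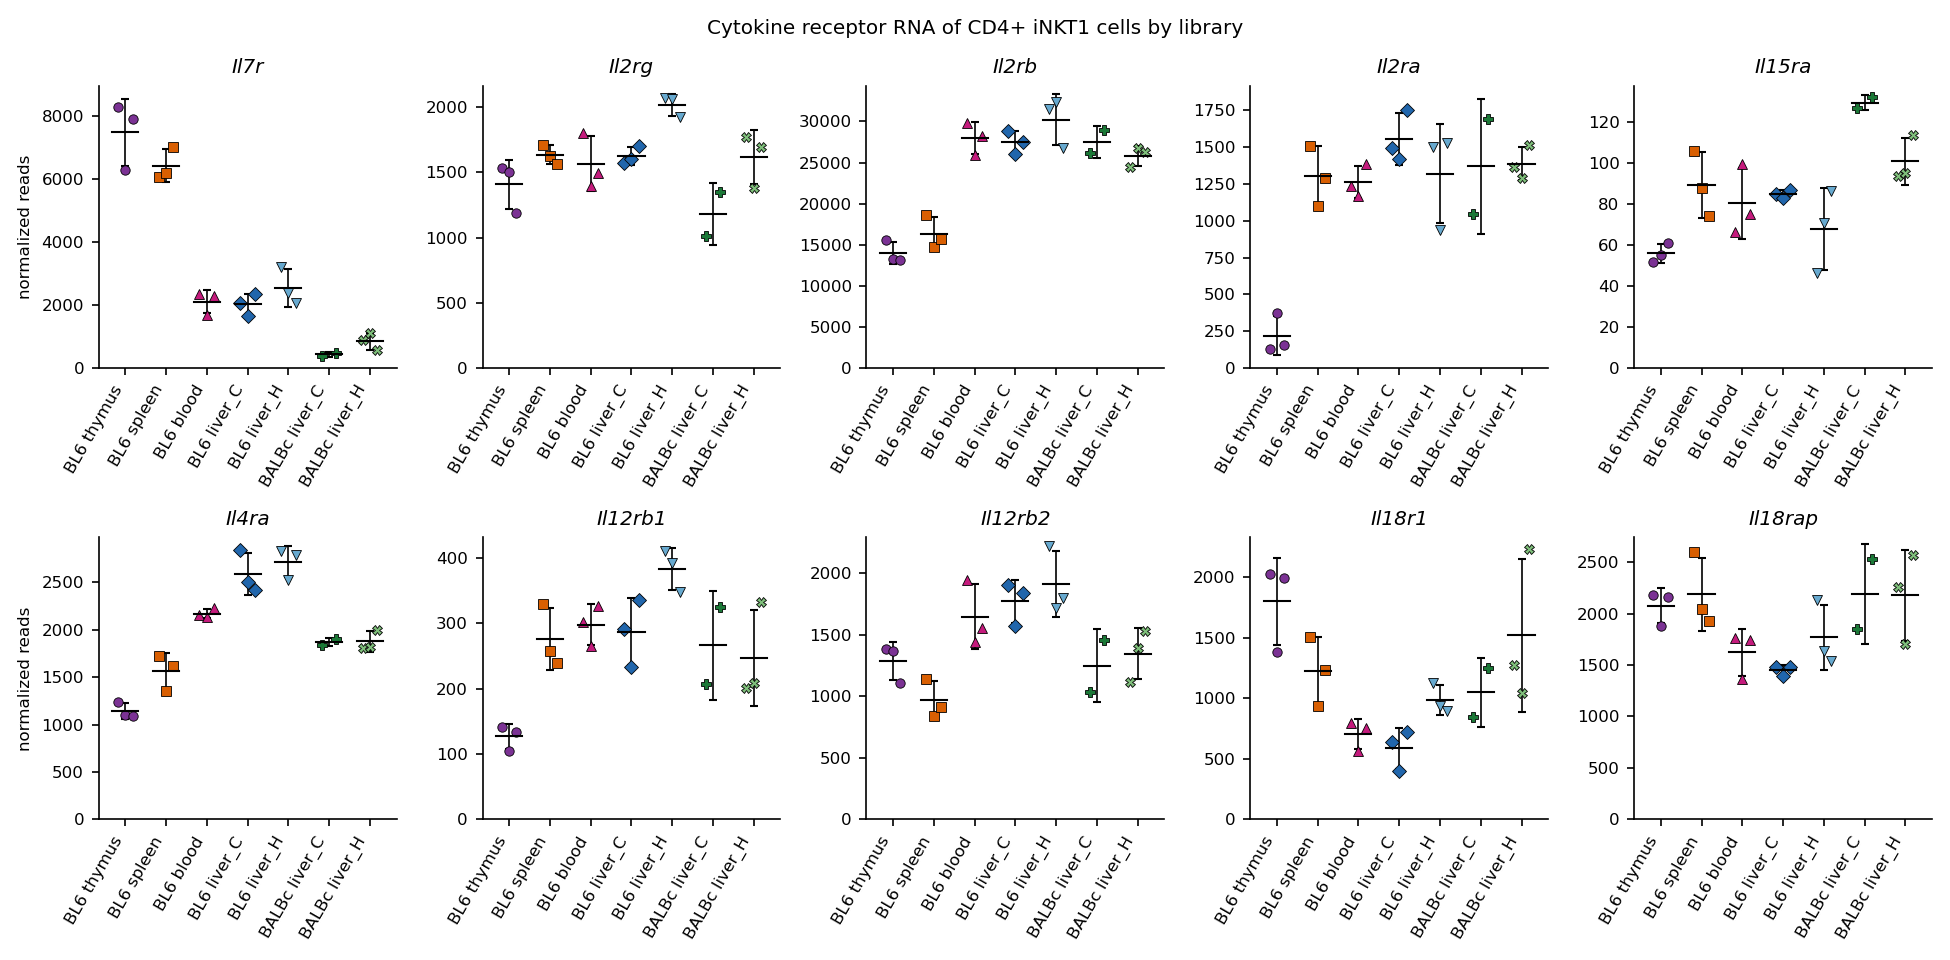
Normalized reads (vertical axes, linear from 0, 1 scale per gene) of the 10 receptor genes in each library of the 7 groups. Points are libraries, long bars are means and error bars are SD (n = 3, and 2 for BALB/c liver_C). Il7r stands between 6046 and 8267 in thymus and spleen and at most at 3201 elsewhere, and Il2ra at most at 371 in thymus and at least at 935 elsewhere.

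Il7r separated the groups more than any other of the 10 genes, with group means that differed 17.6-fold. It lies on chromosome 15 from 9505788 to 9530176 (ENSMUSG00000003882.5, minus strand). BL6 thymus libraries had 8267 (N0967), 6277 (N1376) and 7892 (N1380) normalized reads, and BL6 spleen libraries 6046 (N1226), 6201 (N1377) and 7021 (N1381). BL6 blood had 2329 (N0962), 1682 (N1378) and 2288 (N1382), BL6 liver_C 2061 (N1224), 1653 (N1379) and 2336 (N1383), and BL6 liver_H 3201 (N0963), 2361 (N0969) and 2056 (N1225). BALB/c liver_C had 363.5 (N0970) and 485.5 (N1227), and BALB/c liver_H 881 (N0971), 1096 (N0972) and 568 (N1229). Thymus and spleen thus formed a high tier, BL6 blood and liver a middle tier and BALB/c liver a low tier, and no library of 1 tier overlapped another tier. Within the high tier and within the middle tier neighbouring groups overlapped. Spleen exceeded liver_C by a log2 fold change of 1.68 (standard error 0.16, limma adjusted p = 4.1e-05), a 3.21-fold difference. Blood was below spleen at -1.62 (standard error 0.17, limma adjusted p = 1.6e-05) and did not differ detectably from liver_C, with 0.06 and a 95% interval of -0.30 to 0.41.

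The common gamma chain, the partner of the IL-7 receptor alpha chain, varied less than Il7r, with group means that differed 1.71-fold. Il2rg (chromosome X, 101264378 to 101268255, minus strand) had group means between 1184 ± 238 (SD, n = 2) in BALB/c liver_C and 2021 ± 84.6 (SD, n = 3) in BL6 liver_H. The BL6 liver_H libraries, with at least 1924, lay above every other library, with at most 1804. Il2rg passed the test in none of the 11 comparisons made. Its difference between spleen and liver_C was 0.01 with an interval of -0.21 to 0.23, which leaves no room for a difference of the size seen for Il7r. Per length, the ratio of Il7r to Il2rg was 2.77 ± 0.63 in thymus, 2.02 ± 0.25 in spleen, 0.69 ± 0.09 in blood and 0.63 ± 0.09 in liver_C (SD, n = 3 each). It was 0.28 ± 0.12 (SD, n = 3) in BALB/c liver_H and 0.18 in both BALB/c liver_C libraries. By these counts Il7r RNA exceeded that of its partner chain in thymus and spleen and was the scarcer of both in every other group. Il2rg shares exon sequence with Gm20489 on the same strand. The effect of this overlap on its count, and so on the level of the ratio, was not tested.

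**Figure D2:**
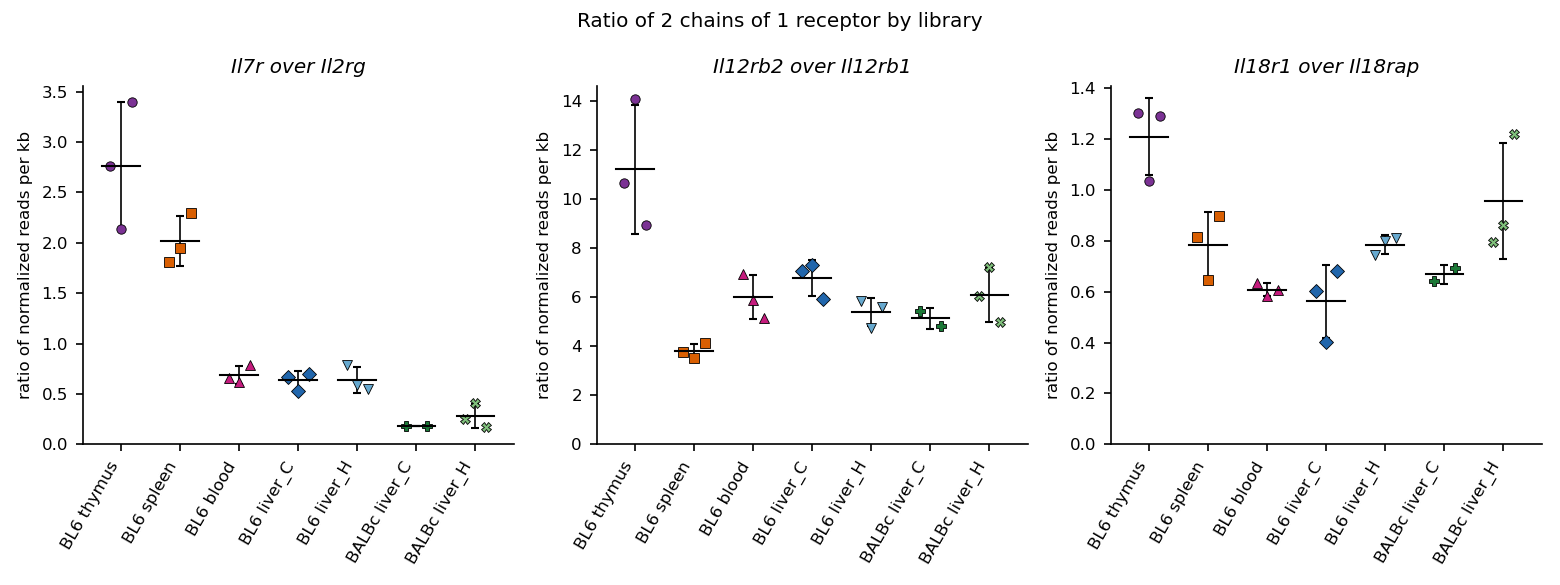
Ratio of normalized reads per kb of gene length (vertical axes, from 0) of Il7r to Il2rg, Il12rb2 to Il12rb1 and Il18r1 to Il18rap in each library. Points are libraries, long bars means and error bars SD. The ratio of Il7r to Il2rg is at least 1.81 in thymus and spleen libraries and at most 0.79 in all others, and that of Il12rb2 to Il12rb1 is lowest in the 3 spleen libraries.

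CD122, the chain shared by the IL-2 and IL-15 receptors, was by far the most abundant of these transcripts. Il2rb (chromosome 15, 78479256 to 78495271, minus strand) stood above 99.86% of the genes with a mean of at least 10 normalized reads. Per length, it had 5606 normalized reads per kb on average over the 20 libraries, against 698 for Il7r and 670 for Il2rg. BL6 liver_C had 28888 (N1224), 26050 (N1379) and 27507 (N1383) normalized reads, blood 29836 (N0962), 25927 (N1378) and 28206 (N1382), and spleen 18581 (N1226), 14743 (N1377) and 15740 (N1381). The 3 spleen libraries lay below every liver and blood library. Spleen minus liver_C was -0.75 (standard error 0.15, limma adjusted p = 0.013), and blood minus spleen 0.78 (standard error 0.14, limma adjusted p = 0.0035). The first of these calls was lost without liver_C N1383 (adjusted p = 0.072), spleen N1377 (0.092) or spleen N1381 (0.077). Liver levels of both strains were close, with 27482 ± 1419 in BL6 and 27526 ± 1956 in BALB/c liver_C, a difference of 0.00 with an interval of -0.46 to 0.46. In liver_H the strains nearly touched, with the lowest BL6 library at 26714.4 (N1225) and the highest BALB/c library at 26712.6 (N0972). The means were 30222 ± 3066 in BL6 and 25832 ± 1201 in BALB/c, a difference of -0.22 with an interval of -0.63 to 0.19. Thymus cells, which were gated by CD122 itself, had 13100 to 15562.

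CD25 RNA was found in all peripheral groups and was scarce in thymus. Il2ra (chromosome 2, 11642807 to 11693193, plus strand) had 127.6 (N0967), 371 (N1376) and 155 (N1380) normalized reads in thymus. It had 1511 (N1226), 1102 (N1377) and 1291 (N1381) in spleen, 1239 (N0962), 1167 (N1378) and 1386 (N1382) in blood and 1492 (N1224), 1420 (N1379) and 1756 (N1383) in liver_C. The 2 liver_H groups and BALB/c liver_C spanned 935 to 1694. All thymus libraries lay below all others, and each peripheral group overlapped its neighbours in the order of their means. Thymus was lower than liver_C by -2.99 (standard error 0.27, limma adjusted p = 2.4e-07), than spleen by -2.72 (adjusted p = 7.8e-07) and than blood by -2.69 (adjusted p = 1.2e-06). Foxp3, which defines regulatory T cells that also carry CD25, had at most 10.48 normalized reads in any library and was listed at 0 in all blood and thymus libraries. The 4 regulatory T cell markers, Foxp3, Ikzf2, Ctla4 and Tnfrsf4, were not scarce as a sum. They summed to 1641 to 1814 in spleen, 1031 to 1201 in thymus, 609 to 706 in blood and 634 to 782 in liver_C. Their part in the level of Il2ra was not tested. The thymus library with the most Il2ra, N1376, also had the most Rag1, 14000 against 7357 and 10481, and the part of thymocyte RNA in the level of Il2ra was not tested.

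Il15ra was the scarcest of the 10 genes, and its group means differed 2.31-fold. Its gene (chromosome 2, 11705290 to 11734317, plus strand) begins 12096 bases after the end of Il2ra. Group means went from 55.8 ± 4.61 in thymus to 129 ± 3.71 in BALB/c liver_C, and libraries from 46.1 to 132. The thymus libraries lay below all spleen, liver_C and blood libraries, and both strains were without overlap in liver. It nevertheless passed the test in none of the 11 comparisons. Thymus minus liver_C was -0.60 with an interval of -1.17 to -0.02, and BALB/c minus BL6 was 0.60 in liver_C (-0.07 to 1.27) and 0.61 in liver_H (0.01 to 1.20). Il15ra and the neighbouring Il2ra had a Pearson correlation of 0.56 over the 20 libraries on the log2 scale, a description with no test.

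RNA of the IL-4 receptor alpha chain was highest in BL6 liver and lowest in thymus. Il4ra (chromosome 7, 125552120 to 125579474, plus strand) had 2845 (N1224), 2500 (N1379) and 2420 (N1383) normalized reads in BL6 liver_C and 2834 (N0963), 2529 (N0969) and 2790 (N1225) in liver_H. Blood had 2152 (N0962), 2137 (N1378) and 2225 (N1382), spleen 1726 (N1226), 1350 (N1377) and 1623 (N1381), and thymus 1238 (N0967), 1099 (N1376) and 1087 (N1380). The BL6 groups stepped down from liver to blood to spleen to thymus without overlap between these steps. Spleen minus liver_C was -0.73 (standard error 0.12, limma adjusted p = 0.0045) and thymus minus liver_C -1.18 (standard error 0.11, adjusted p = 3.9e-07). Blood minus spleen, 0.48 (adjusted p = 0.017), was not called without blood N0962 (adjusted p = 0.054), blood N1382 (0.069) or spleen N1377 (0.11), and thymus minus spleen, -0.45 (adjusted p = 0.0086), not without spleen N1226 (0.051). Over the 20 libraries Il4ra and Il2rb had a Pearson correlation of 0.90 on the log2 scale, a description of libraries that share groups and depth.

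The 2 chains of the IL-12 receptor had their lowest levels in different groups, with a Pearson correlation of 0.48 over the 20 libraries on the log2 scale. Il12rb1 (chromosome 8, 70808449 to 70821424, plus strand) had 142 (N0967), 105 (N1376) and 134 (N1380) normalized reads in thymus. It had 329 (N1226), 258 (N1377) and 240 (N1381) in spleen, 302 (N0962), 265 (N1378) and 327 (N1382) in blood and 292 (N1224), 234 (N1379) and 337 (N1383) in liver_C. The 3 thymus libraries lay below every other library, and those of BL6 liver_H, with 411 (N0963), 393 (N0969) and 348 (N1225), above every other. Thymus minus liver_C was -1.17 (standard error 0.18, limma adjusted p = 0.00013), thymus minus spleen -1.11 (adjusted p = 0.00022) and thymus minus blood -1.23 (adjusted p = 0.00011).

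Il12rb2 (chromosome 6, 67291318 to 67376188, minus strand), whose chain carries the STAT4 docking site, was instead lowest in spleen. Spleen had 1146 (N1226), 841 (N1377) and 916 (N1381) normalized reads, and liver_C had 1905 (N1224), 1575 (N1379) and 1844 (N1383). Blood had 1944 (N0962), 1441 (N1378) and 1558 (N1382), and thymus had 1389 (N0967), 1367 (N1376) and 1107 (N1380). Spleen overlapped thymus but neither blood nor liver_C. Spleen minus liver_C was -0.88 (standard error 0.14, limma adjusted p = 0.0036) and blood minus spleen 0.77 (standard error 0.15, adjusted p = 0.0046). Thymus minus liver_C was -0.47 (adjusted p = 0.043), and this call was lost under 8 of the alternatives tried, among them without liver_C N1224 (adjusted p = 0.15) or N1383 (0.13) and without thymus N1376 (0.054) or N1380 (0.2). The share of the opposite-strand gene Serbp1 in these reads was not tested. Per length, the ratio of Il12rb2 to Il12rb1 was 3.81 ± 0.30 in spleen, 6.76 ± 0.73 in liver_C, 6.00 ± 0.91 in blood and 11.2 ± 2.62 in thymus (SD, n = 3 each).

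The 2 genes of the IL-18 receptor, neighbours on chromosome 1, varied together. Il18r1 (40465552 to 40500854, plus strand) and Il18rap (40515362 to 40551705, plus strand) have 14507 bases between them, and their log2 levels had a Pearson correlation of 0.84 over the 20 libraries. Il18r1 had 2024 (N0967), 1383.3 (N1376) and 1992 (N1380) normalized reads in thymus, 1504 (N1226), 940 (N1377) and 1233 (N1381) in spleen, and 637 (N1224), 400 (N1379) and 721 (N1383) in liver_C. Blood had 800 (N0962), 566 (N1378) and 753 (N1382). Blood and liver_C overlapped, and both lay below all spleen and thymus libraries. Spleen minus liver_C was 1.08 (standard error 0.21, limma adjusted p = 0.0098, and 0.051 without spleen N1381), thymus minus liver_C 1.64 (standard error 0.21, adjusted p = 1.9e-05) and thymus minus blood 1.34 (adjusted p = 0.00025). Blood minus spleen was -0.78 (standard error 0.21, adjusted p = 0.042), a call lost under 8 alternatives, among them the omission of blood N0962 (adjusted p = 0.059), N1378 (0.15) or N1382 (0.081) or of spleen N1226 (0.12) or N1381 (0.13).

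The accessory chain varied over a smaller range and was also lowest in BL6 liver_C. Il18rap had 2594 (N1226), 2043 (N1377) and 1930 (N1381) normalized reads in spleen, 2180 (N0967), 1878 (N1376) and 2165 (N1380) in thymus and 1481 (N1224), 1395 (N1379) and 1483 (N1383) in liver_C. Blood had 1766 (N0962), 1360 (N1378) and 1741 (N1382). Every spleen and thymus library exceeded every liver_C library, and blood overlapped liver_C. Spleen minus liver_C was 0.58 (standard error 0.14, limma adjusted p = 0.044), and thymus minus liver_C 0.51 (standard error 0.14, adjusted p = 0.021). Leaving out any of the 6 spleen and liver_C libraries ended the first call, with adjusted p from 0.071 to 0.14, and leaving out liver_C N1379 or N1383 or thymus N0967 or N1380 ended the second, with 0.055 to 0.078. Blood minus spleen was -0.43 (interval -0.72 to -0.13, adjusted p = 0.096) and thymus minus spleen -0.07 (-0.36 to 0.23), beside 0.56 for Il18r1 (adjusted p = 0.093). Per length, Il18r1 was scarcer than Il18rap in spleen (ratio 0.78 ± 0.13), blood (0.61 ± 0.03) and liver_C (0.56 ± 0.14), and reached 1.21 ± 0.15 in thymus (SD, n = 3 each).

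**Figure D3:**
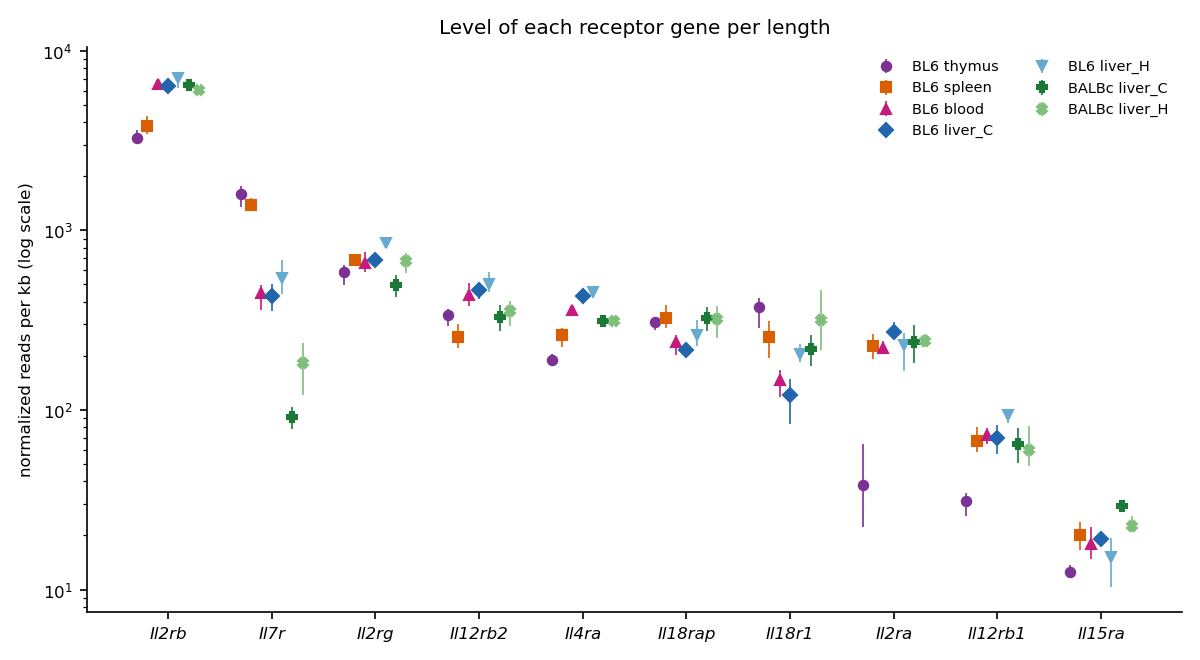
Normalized reads per kb of gene length (vertical axis, log scale) for the 10 receptor genes in order of their mean level. Symbols are group means and lines run from the lowest to the highest library of the group. Il2rb leads with 5606 per kb over the 20 libraries and Il15ra is last with 19.04, and the groups spread most for Il7r.

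A larger share of the receptors than of all genes was called between spleen and liver. The receptors were chosen with earlier results of these data known, so the shares here are a description and no test of enrichment. In spleen minus liver_C, 2.55% of 12802 genes were called, 0.914% higher and 1.63% lower. Of the 10 receptor genes 3 were called higher (Il7r, Il18r1 and Il18rap) and 3 lower (Il2rb, Il4ra and Il12rb2). edgeR and DESeq2 on the recovered reads also called 6, and without spleen N1381 limma called 3. The libraries of both groups did not overlap for these 6 genes, where 19.3% of all genes were without overlap. The median of the 10 log2 fold changes was -0.02, beside 0.01 over all genes, so the members did not move one way. In blood minus spleen 4.22% of 13604 genes were called (2.96% higher and 1.26% lower), and of the 10 receptors 3 were higher, which were Il2rb, Il4ra and Il12rb2, and 2 lower, which were Il7r and Il18r1. Without blood N0962 or N1382 the count of 5 was 3. There 6 were without overlap, against 23.1% of all genes. In blood minus liver_C, where 0.265% were called, limma, edgeR and DESeq2 called 0 of the 10, and only Il4ra had an unadjusted p under 0.05 (-0.25, limma adjusted p = 0.61). Both blood comparisons share their 3 blood libraries, and spleen minus liver_C shares its libraries with both. Summed B and plasma cell markers were 467 to 938 in spleen, 38.4 to 206 in blood and 5.11 to 18.7 in liver_C, and 5 of 5 measured markers were called higher in spleen than in liver_C. Their part in the 6 calls was not tested.

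Thymus differed from liver_C and blood in more of the receptors than from spleen, each time with many calls over all genes. Thymus minus liver_C called 12.5% of 13604 genes (6.2% higher and 6.27% lower) and 7 of the 9 receptors other than Il2rb, with Il7r, Il18r1 and Il18rap higher and Il2ra, Il4ra, Il12rb1 and Il12rb2 lower. All 9 were without overlap, against 27.4% of all genes. Thymus minus blood called 10.5% of the genes (5.05% higher and 5.43% lower) and 5 of the 9, which were Il7r and Il18r1 higher and Il2ra, Il4ra and Il12rb1 lower, with 8 of the 9 without overlap beside 27.1% of all genes. Thymus minus spleen called 13.4% (5.73% lower) and 3 of the 9, namely Il2ra, Il4ra and Il12rb1, all lower, with 5 of the 9 without overlap beside 27% of all genes. For Il7r the difference between thymus and spleen was 0.21 (interval -0.14 to 0.57). The 6 thymocyte markers Rag1, Rag2, Ptcra, Dntt, Cd8a and Cd8b1 were all called higher in thymus than in spleen and liver_C, and 5 of them than in blood. They summed to 10367 to 23280 in thymus, 71.3 to 168 in spleen, 176 to 2548 in blood and 13.6 to 46.5 in liver_C. NK cell markers summed to 312 to 450 in thymus and at most 127 in the other BL6 groups, and the 4 iNKT17 markers to 190 to 534 against at most 96.9, with Il17a at 0 in all of these libraries. Their part in these differences was not tested.

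**Figure D4:**
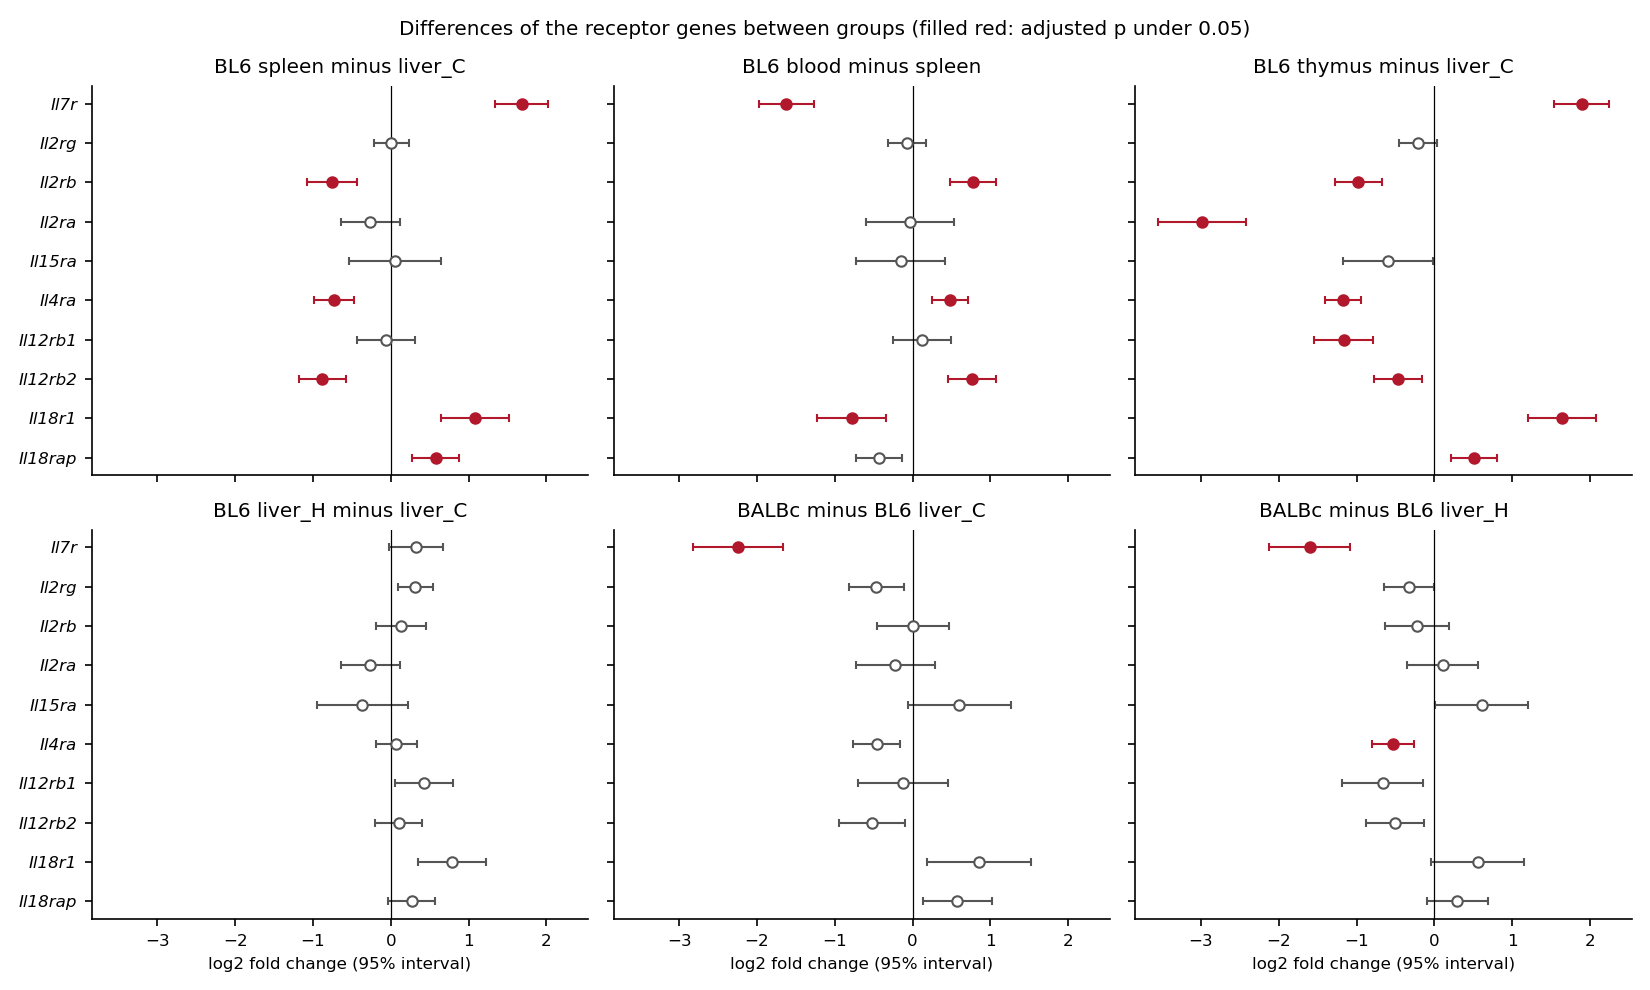
Log2 fold changes (horizontal axes) of the 10 receptor genes in 6 of the 11 comparisons, with 95% intervals from limma. Filled red points have an adjusted p under 0.05 and open grey points do not. The filled point of Il2rb in thymus minus liver_C is a description only, since thymus cells were gated by its protein. Spleen minus liver_C and blood minus spleen share the spleen libraries, digestion shows no filled point, and Il7r is the called gene farthest from 0 in both strain comparisons.

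Digestion of the liver moved none of the receptors past the threshold. In BL6 liver_H minus liver_C, 2.4% of 12802 genes were called, while limma and edgeR called 0 of the 10 receptors, DESeq2 called 1 (Il18r1) and 3 had an unadjusted p under 0.05. Il18r1 had 1129 (N0963), 934 (N0969) and 891 (N1225) normalized reads in liver_H and 400 to 721 in liver_C, without overlap. Its difference was 0.78 (interval 0.35 to 1.22, limma adjusted p = 0.061, DESeq2 adjusted p = 0.02). Il2rg differed by 0.31 (interval 0.09 to 0.54) and Il12rb1 by 0.43 (0.05 to 0.80), with limma adjusted p of 0.15 and 0.25. For Il7r it was 0.32 (-0.02 to 0.67) and for Il2ra -0.26 (-0.64 to 0.11). Liver_H libraries N0963 and N0969 belong to the lowest number range, which holds no BL6 liver_C library, and their Rag1 levels were 278 and 412 against at most 12.4 in liver_C.

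In the same comparison in BALB/c only 0.273% of 13202 genes were called. limma, edgeR and DESeq2 called 0 of the 10, and Il7r and Il2rg had an unadjusted p under 0.05. Il7r was higher in all 3 liver_H libraries than in both liver_C libraries, by 0.96 (standard error 0.27, interval 0.38 to 1.54, limma adjusted p = 0.27). Il18r1 had 1279 (N0971), 1046 (N0972) and 2236 (N1229) normalized reads in liver_H and 846 (N0970) and 1252 (N1227) in liver_C, which overlapped. The difference of the digestion effect between the strains was called for 0% of all genes, for 0 of the 10 receptors by limma, edgeR or DESeq2, and none of the 10 had an unadjusted p under 0.05. For Il7r that difference was 0.64 with an interval of -0.14 to 1.42.

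Between the strains Il7r was the receptor that differed in both preparations. In liver_C BALB/c minus BL6 was -2.25 (standard error 0.27, limma adjusted p = 0.00022), a 4.74-fold lower level, with 2.58% of 13202 genes called (1.41% lower) and 1 of the 10 receptors. In liver_H it was -1.61 (standard error 0.24, adjusted p = 0.0012), 3.05-fold lower, with 3.71% called (1.91% lower) and 2 of the 10 receptors. Both calls held under every alternative tried that left more than 1 library in each group compared. The omission of either BALB/c liver_C library or of the lowest number range left 1 library in a BALB/c group. In liver_H the omission of that range left 1 library against 1. Such fits take the spread from other groups and are no check on these calls. Il4ra had 1843 (N0970) and 1901 (N1227) in BALB/c liver_C and 1810 (N0971), 1820 (N0972) and 2002 (N1229) in BALB/c liver_H, below all 6 BL6 liver libraries. Its difference was -0.53 in liver_H (standard error 0.13, limma adjusted p = 0.032), a call lost under 8 alternatives, and -0.46 in liver_C (adjusted p = 0.14). Without BALB/c liver_H N0971 or N0972 its adjusted p in liver_H was 0.091 and 0.1, and without BL6 liver_H N0963, N0969 or N1225 it was 0.13, 0.062 and 0.11. Without the lowest number range, with 1 library against 1, the difference was -0.48. Il18r1 was higher in BALB/c by 0.86 in liver_C (interval 0.19 to 1.53, adjusted p = 0.28) and 0.56 in liver_H (-0.04 to 1.16, adjusted p = 0.36). Of the 10 receptors 7 were without overlap in each strain comparison, against 24.9% of all genes in liver_C and 20.4% in liver_H. Those of liver_H include Il2rb, whose nearest libraries had 26714.4 (BL6 N1225) and 26712.6 (BALB/c N0972). Klrb1c, the gene of the NK1.1 antigen that antibodies detect in BL6 but not in BALB/c mice, had 205 to 245 normalized reads in BALB/c and 2406 to 3260 in BL6 liver libraries. The 4 iNKT2 markers, none of them at 0 throughout a group, summed to 1850 to 2015 in BALB/c and 2731 to 2859 in BL6 liver_C, and to 2370 to 2761 and 2678 to 2974 in liver_H. In liver_C 2 of the 4, Il17rb and Plac8, were called lower in BALB/c, in liver_H 1, Plac8, and their part in the strain differences was not tested. The reads of both strains were counted on the C57BL/6 reference genome, and the effect of strain sequence differences on counting was not tested.

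The signalling genes behind these receptors were taken from lists, of which called genes and a few others are named. Of 10 JAK and STAT genes, limma, edgeR and DESeq2 called 0 in spleen minus liver_C, in blood minus liver_C and in the liver comparisons, where 0 to 2 had an unadjusted p under 0.05. In thymus minus liver_C 3 were lower and 0 higher, beside 12.5% of all genes called, and the median log2 fold change of the 10 was -0.33 beside 0.01 over all genes. These were Stat4 (-1.62, limma adjusted p = 1.3e-06), Jak2 (-1.005, 5.3e-05) and Stat3 (-0.58, 0.012), each a log2 fold change. Stat4, the factor activated by IL-12, had 450 ± 28.0 normalized reads in thymus, 1060 ± 292 in spleen, 1218 ± 130 in blood and 1391 ± 207 in liver_C (SD, n = 3 each). Against spleen, thymus was lower for 3 of the 10, beside 13.4% of all genes called, namely Jak2 (-1.39, 1e-06), Stat4 (-1.20, 4.7e-05) and Stat3 (-0.46, 0.044) by the limma adjusted p. There edgeR called 2 of the 10 and DESeq2 3. Against blood, thymus was lower for 2, Stat4 and Jak2, beside 10.5%. These comparisons share the thymus libraries. Stat5a and Stat5b, which act below IL-7, IL-2 and IL-15, had 406 ± 53.0 and 1407 ± 210 in thymus and 331 ± 85.2 and 1417 ± 221 in liver_C, and neither was called. In blood minus spleen 1 of the 10, Jak2, was lower (-0.53, limma adjusted p = 0.04), beside 4.22% of all genes, a call that edgeR did not make.

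Of 13 genes of IL-18 signalling, limma called 0 outside the thymus comparisons, where 0 to 3 had an unadjusted p under 0.05, edgeR called 0 or 1 and DESeq2 0 or 1. The median log2 fold change of the 13 in thymus minus spleen was -0.15, beside -0.01 over all genes. In thymus minus spleen 4 of the 13 were called, all lower, beside 13.4% of all genes. Thymus minus liver_C called 2, both lower, beside 12.5%, a share close to that over all genes. Thymus minus blood called 2 lower and 1 higher, beside 10.5%. Irak2 and Irak3 were lower in thymus than in spleen, liver_C and blood. Irak3, an inhibitor of this pathway, had 22.7 ± 12.1 normalized reads in thymus, 219 ± 95.04 in spleen, 83.3 ± 25.0 in blood and 102 ± 6.77 in liver_C (SD, n = 3 each), and thymus minus spleen was -3.25 (standard error 0.38, limma adjusted p = 6.5e-06). Irak2 was lower than in spleen by -1.37 (adjusted p = 5.8e-06). The adaptor Myd88 (-0.70, adjusted p = 0.002) and Irak4 (-0.47, 0.042) were lower in thymus than in spleen, and Sigirr, another inhibitor, was higher than in blood (0.57, 0.017). Irak3 is also known from macrophages. The 6 macrophage markers summed to 13.8 to 119 in spleen and 13.9 to 42.1 in thymus. In blood the sum was 3.74 to 66.7 and in liver_C 5.96 to 22.0. Their part in the level of Irak3 was not tested.

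Among 21 other cytokine receptor genes, 15 were measured in the BL6 spleen and liver libraries. Against liver_C, spleen had higher levels of 3 and lower levels of 4, with a median of -0.08 beside 0.01 over all genes, of which 2.55% were called (0.914% higher and 1.63% lower). Il6ra (2.29, limma adjusted p = 0.0037), Ifngr2 (3.67, 0.017) and Il27ra (0.57, 0.021) were higher, and Ifngr1 (-0.93, 0.0036), Il10ra (-0.97, 0.0098), Il10rb (-0.63, 0.016) and Il21r (-0.51, 0.027) were lower. Ifngr1, the ligand-binding chain of the interferon-γ receptor, had 2396 ± 236 normalized reads in spleen, 4585 ± 622 in liver_C, 4162 ± 197 in blood and 5376 ± 701 in thymus (SD, n = 3 each). It was also lower in BALB/c than in BL6, by -1.08 in liver_C (adjusted p = 0.0086) and -1.09 in liver_H (0.0028). Il6ra, a chain of the IL-6 receptor, was higher in liver_H than in liver_C in BL6 (1.88, adjusted p = 0.015) and in BALB/c (2.75, 0.049, not called by edgeR). Its levels were low, with 13.5 ± 2.59 in BL6 liver_C and 52.9 ± 11.8 in BL6 liver_H (SD, n = 3 each). In BALB/c they were 15.1 ± 3.93 in liver_C (SD, n = 2) and 118 ± 62.5 in liver_H (SD, n = 3). Ifngr2 stayed low throughout, with 2.24 ± 1.94 in liver_C, 33.0 ± 2.65 in spleen and 61.8 ± 28.2 in thymus. Of 12 ligand genes only 2 to 4 had enough reads to be tested, and Il7, Il15 and Il18 had group means of at most 3.30 normalized reads. Il4 was higher in liver_H than in liver_C of BL6 (1.01, adjusted p = 0.042), with 226 ± 57.7 and 111 ± 21.4 (SD, n = 3 each).

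The genes most alike in pattern were looked for among 8114 genes with a mean of at least 100 normalized reads, by Pearson correlation of log2 levels over the 20 libraries. For Il7r they were Scyl2 (0.92), Abca1 (0.92) and Slco3a1 (0.91), and for Il2ra P2rx7 (0.97), Asb2 (0.96) and Gcnt2 (0.96). Il2rb was most like F2rl2 (0.95), Il12rb1 most like Itgb2 (0.94) and Il12rb2 most like Nfatc2 (0.94). Il4ra was nearest to Tecpr1 (0.89), Il2rg to Ogdh (0.86) and Il15ra to Rps6kc1 (0.84). Il18r1 (Fbxl12, 0.72) and Il18rap (Icmt, 0.67) were less like any gene outside the 10 than like each other. These values describe 20 libraries of 7 groups, which are not independent points.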

How the data were processed

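CD4+ iNKT1 cells were sorted and their total RNA was sequenced as 75-base single reads with a stranded low-input kit. According to the submitters' notes and the methods of the study, reads were trimmed with Trim Galore 0.4.4, aligned to GRCm38.p6 with STAR 2.5.3a and counted by featureCounts 1.6.1 with the GENCODE release M17 annotation. The strand setting is not given in the sources used here. The authors deposited a signal, the read count of each gene divided by the DESeq2 size factor of the library. At least 99.977% of the nonzero values in each library came out as whole reads (tolerance 0.05), so reads and depth could be recovered. Of 53715 lines 1 named no gene and was left out.

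Differences were fitted with limma 3.58.1 (R 4.3.3) on log2(normalized reads + 1), which understates the change of low genes, and a gene was tested where 3 or more libraries of the fit had 10 or more normalized reads. Separate fits held the BL6 spleen and liver libraries (spleen against liver_C, and BL6 digestion), the liver libraries of both strains (strain and BALB/c digestion), and the 15 BL6 libraries (thymus and blood). No replicate was counted as a duplicate of another, since the 19 pairs differed beyond sampling noise (chi-square per degree of freedom 12.78 to 237.19). edgeR 4.0.16 and DESeq2 1.42.0 on the recovered reads, TMM factors, quantile normalization, other pseudocounts (0.5 and 10) and filters, other sets of libraries, and the omission of each library were alternatives. The omission of the libraries numbered N0962 to N0972 was chosen after seeing the data. The limma code was tested on simulated data. Reads carry no molecular identifiers.

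The members and the lists of signalling genes, receptors, ligands and cell markers were chosen with earlier results of these data known. The rule named all members, in a comparison up to 4 called genes per list, those of lowest adjusted p, and for likeness the 3 closest genes of the 3 members with the widest range of group means and the closest gene of the others. Further called genes of a list, markers outside the rule, Stat5a, Stat5b and the ligands at low levels were named after their values were seen. Levels were compared between genes per kb of the gene length in the deposited table. The table's columns of the authors' own comparison of thymus with the other libraries (fold change and p-values) were not used. Promoter sequences came from RefSeq. One gene of the signalling list is not reported here.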

Additional observations from a re-analysis of the deposited data

How the results depend on the processing

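Of 110 values (10 genes in 11 comparisons), 31 were called, of which 22 stayed called under every alternative, 9 were lost under at least 1 and 0 reversed, while 8 of the 79 others gained a call. All 6 calls of Il7r were among the 22. So were 2 values of Il2rb, thymus against liver_C and blood, which the gate touches and which are descriptions only. For BALB/c minus BL6 liver_C the count of receptors called was 1, and 2 with all 20 libraries in the fit and 2 with DESeq2, where leaving out a library gave 1 to 2. For BALB/c minus BL6 liver_H it was 2, and 1 with no filter, 1 with only the groups compared and 1 without the lowest library number range, where leaving out a library gave 1 to 3. For blood minus spleen it was 5, and 3 without the lowest library number range, where leaving out a library gave 3 to 4 (3 without blood N0962 or N1382). For spleen minus liver_C it was 6, and leaving out a library gave 3 to 5 (3 without spleen N1381). For BL6 liver_H minus liver_C it was 0, and 1 with DESeq2 (Il18r1). The causes were not tested, except that the omissions leave fewer libraries. No paired fit was made because the labels do not say which libraries share mice. With the library number range as a term instead, receptors called were 6 in spleen minus liver_C, 6 in blood minus spleen, 4 in thymus minus spleen and 0 in BL6 digestion, and genes called 721, 1060, 1915 and 90. Where BALB/c liver_C or a liver_H group was left with 1 library, that library was assumed to vary like the other groups. Over all genes, the counts moved in every comparison under at least 1 alternative. Spleen minus liver_C went from 326 to between 138 and 721, BL6 digestion from 307 to 46 and 598, BALB/c digestion from 36 to 9 and 131, and the digestion difference from 0 to at most 7. The strain comparisons went from 340 to 155 and 655 in liver_C and from 490 to 218 and 864 in liver_H. Blood minus spleen went from 574 to 258 and 1060, blood minus liver_C from 36 to 9 and 162, and the thymus comparisons from 1828 to 1143 and 2017 (spleen), 1697 to 1151 and 2028 (liver_C) and 1426 to 833 and 1913 (blood).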
